A study of Mus musculus with 28 samples.

Results

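The distal and the proximal colon of mice at the late stage of an azoxymethane and dextran sulfate sodium regime were compared gene by gene on Affymetrix arrays. The comparison took all arrays with those labels, 6 of late distal and 4 of late proximal colon, or 10 of the 28 arrays of the study. The mice of every group were female C57BL/6J. Azoxymethane (AOM), which induces colon tumours in rodents, was injected into the peritoneum at 10 mg/kg. Dextran sulfate sodium (DSS), a sulfated polysaccharide that causes colitis, was given at 2.5% in the drinking water from 96 hours after AOM, in cycles of 5 days followed by 14 days of plain water. Late mice went through 4 cycles and were killed on day 120. The early groups (3 distal and 3 proximal arrays, 2 cycles, day 42) and the untreated groups (6 distal and 6 proximal arrays) gave the region difference in other states. The series' design text places dysplasia and intramucosal adenocarcinoma in the distal colon of late mice and calls the proximal colon unaffected. Region and lesion therefore cannot be told apart within the late groups, and the untreated region difference is given beside the late one for many genes. Whether a proximal and a distal array came from 1 mouse is not labelled, and the spread is that between arrays the labels call biological replicates.

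As background, the proximal colon forms from the midgut and the distal colon from the hindgut, and a code of Hox genes marks both territories in the adult. Wnt ligands hold crypt stem cells in division by way of β-catenin and TCF/LEF factors, and tumours of this model commonly carry activating mutations of β-catenin. DSS strips the epithelium, and repair draws in neutrophils and macrophages and remodels the matrix.

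Values are log2 units after RMA, which summarises the probes of a probe set, and 14122 genes were tested. The array medians were 6.61 to 6.799. The median of probe sets that the authors' table leaves out was 4.11, so where the lower group lay near that level the size of a difference depends on background and is uncertain. Krt20, a keratin of mature colon epithelium, was high in all 10 late arrays (13.05 to 13.20 in proximal and 11.85 to 12.56 in distal), and the hindgut gene Hoxb13 was at 12.19 to 12.66 in late distal and at most 8.94 in late proximal arrays, as the labels have it. Several arrays stood apart from their group. Late proximal 3 and 4 read 8.94 and 8.57 for Hoxb13 against 5.02 and 5.45 in late proximal 1 and 2. Late distal 5 read highest of the distal arrays for some genes that are high in proximal colon, such as Slc51a at 7.14. Late proximal 1 was high in lymphoid and endothelial genes, and late distal 2, 3 and 5 held pancreatic transcripts. Among the untreated, the arrays labelled proximal 1 (Hoxd13 11.38) and distal 3 (3.44) carried the Hox levels of the other region, so untreated differences are given without those 2 arrays unless stated. The choice rests on measured levels of regional genes, so for genes that follow region the SE and adjusted p without the 2 arrays are too small.

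The late regions differed widely. Of the 14122 genes, 5750 (40.7%) were called at an adjusted p under 0.05 (limma). Of all genes, 3064 (21.7%) were called higher and 2686 (19%) lower in late distal than in late proximal colon. At least 2-fold higher were 871 genes (6.17%) and at least 2-fold lower 818 (5.79%). All 6 distal arrays lay above all 4 proximal arrays for 2375 genes (16.8%) and below them for 2056 (14.6%). The first principal component of the 10 arrays, with 66% of the variance, separated the regions, and the second, with 13.5%, set late proximal 1 and late distal 2 and 3 against the other 7. Without late proximal 3 and 4 the calls numbered 1632 higher and 1430 lower. Adipocyte genes moved with region too. Their mean level did not overlap between the regions (0.79 to 1.70 in proximal, -1.37 to -0.08 in distal, relative to the mean of the 10 arrays). With this mean as a covariate 72 genes were called higher and 64 lower. Means of other lists, such as Wnt target, neutrophil and xenobiotic genes, did not overlap either, and none of them was used as a covariate. A covariate that follows region takes up the region difference itself, so these counts cannot separate fat from region. The part of fat was not tested.

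Genes of regional identity led the comparison in both directions. Hoxd13, a posterior Hox gene, read 4.10, 3.57, 7.52 and 3.59 in late proximal arrays 1 to 4 and 11.32 to 11.98 (median 11.81) in the 6 late distal arrays. The groups did not overlap, and the difference was 7.07 ± 0.65 SE (adjusted p = 1.34e-05), with late proximal 3 well above the other 3. Hoxb13, another posterior Hox gene, read 5.02, 5.45, 8.94 and 8.57 in proximal and 12.19 to 12.66 (median 12.46) in distal arrays, a difference of 5.46 ± 0.69 SE (adjusted p = 0.000124). Fxyd4, a regulator of the sodium pump induced by corticosteroids, differed by 6.63 ± 0.63 SE (adjusted p = 1.79e-05). Atp12a, the colonic proton and potassium pump, differed by 5.03 ± 0.53 SE (adjusted p = 3.95e-05). These genes showed the same regional pattern in untreated mice, where with all 12 arrays as labelled Hoxd13 differed by 5.69 ± 1.38 SE (adjusted p = 0.0166) and Hoxb13 by 4.74 ± 1.25 SE (adjusted p = 0.0227). Without the 2 arrays, as a description with no test, Hoxd13 differed by 8.42, Hoxb13 by 7.15, Fxyd4 by 8.75 and Atp12a by 6.76. The same holds for Tmprss13, a membrane serine protease (late 5.54, untreated 5.99), and Casp14, a caspase of cornifying epithelium (late 5.39, untreated 6.59). KHDC1L, a name of the authors' table with no matching mouse gene, differed by 6.17 ± 0.49 SE (adjusted p = 5.4e-06) and in untreated mice by 3.98 (2.90 ± 0.63 SE, adjusted p = 0.0115, with all 12 arrays).

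In the opposite direction stood Slc51a, a subunit of the transporter that passes bile acids out of the enterocyte into blood. It read 11.60, 11.74, 11.48 and 11.70 in late proximal arrays and 3.63 to 7.14 (median 4.16) in late distal arrays, and late distal 5 was the high one at 7.14. The groups did not overlap, and the difference was -7.05 ± 0.56 SE (adjusted p = 4.77e-06). It also differed in untreated mice, by -7.39 (-5.06 ± 1.18 SE, adjusted p = 0.0141, with all 12 arrays). Osr2, a zinc finger factor of development, read 9.16 to 9.82 in proximal and 4.50 to 5.92 in distal arrays and differed by -4.70 ± 0.26 SE (adjusted p = 8.14e-07). Late distal 5 had the highest value of the distal arrays for Slc51a, Osr2 and Hoxb6, a central Hox gene that differed by -4.24 ± 0.20 SE (adjusted p = 3.49e-07).

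Of 16 posterior Hox genes listed, 12 were measured. Called higher in late distal colon were 7 of them, against a background of 21.7% of all genes, and 2 were called lower (Hoxc9 and Hoxb9). Of 15 measured anterior and central Hox genes, 9 were called lower, against a background of 19%, and 1 higher (Hoxa5). The Hoxa5 call (0.47) was lost without any 1 of late proximal 1, 2 and 3 and late distal 1, 2 and 3 (adjusted p up to 0.097) and in the fit of all 28 arrays (adjusted p = 0.0824). Hoxb5 differed by -3.17 ± 0.14 SE (adjusted p = 2.78e-07) and Hoxb3 by -2.99 ± 0.12 SE (adjusted p = 2.78e-07). The 2 lists had median differences of 0.65 and -1.49 in late mice, and of 0.31 and -0.61 in untreated mice, against 0.028 and -0.009 over all genes.

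**Figure D1:**
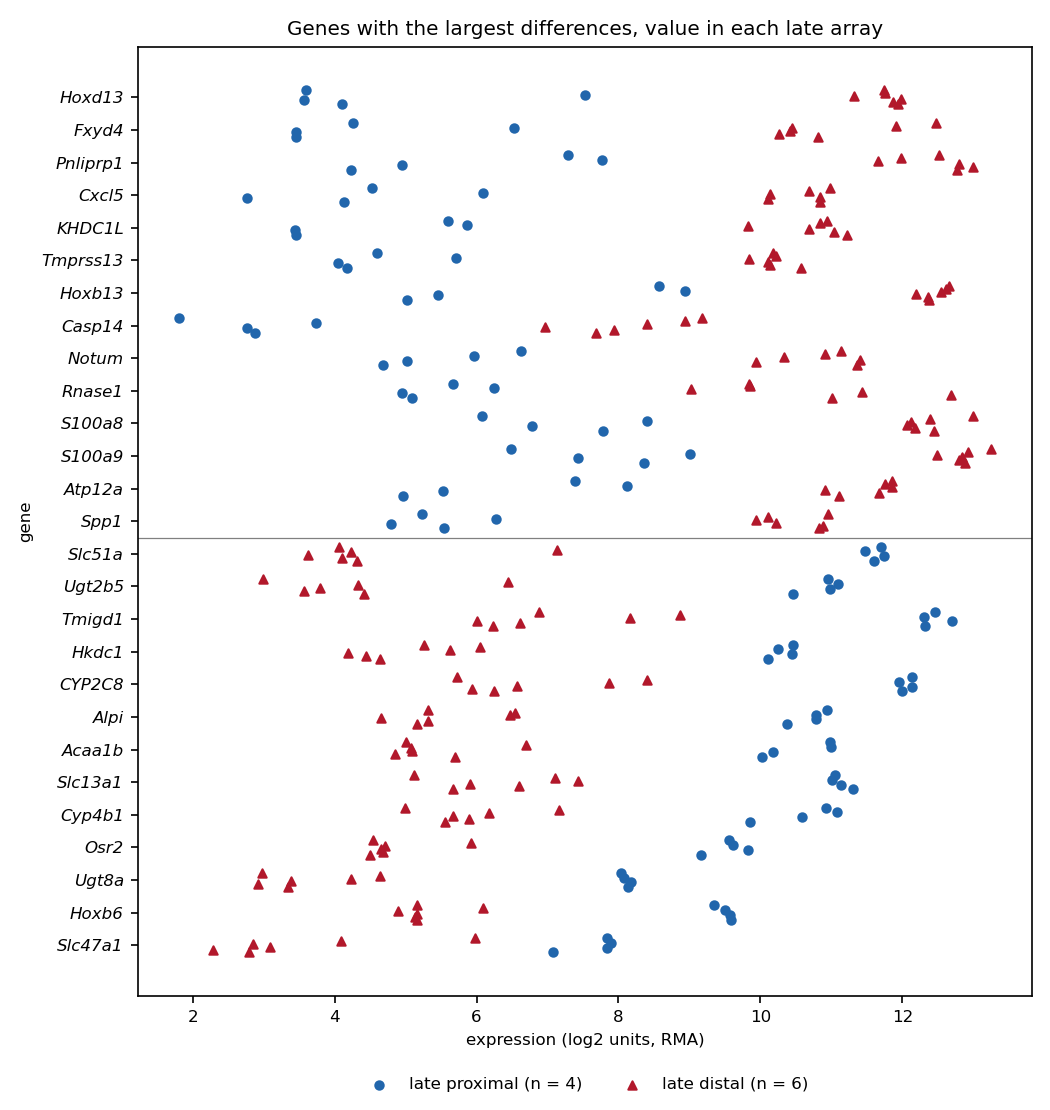
Each row is 1 of the genes with the largest differences among those called with no overlap, and each point is 1 late array (horizontal axis, log2 expression; circles, 4 late proximal arrays; triangles, 6 late distal arrays). The circles and triangles are apart in every row, with late proximal 3 nearest the distal arrays for Hoxd13 (7.52) and late distal 5 nearest the proximal arrays for Slc51a (7.14).

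Genes of the Wnt target list were higher in the late distal colon as a group. Besides targets, the list holds Wnt ligands such as Wnt5a and Wnt11. Of 33 genes listed, 28 were measured. Of these, 24 were called higher and 2 lower (Wnt11 and Nkd2), where 21.7% and 19% of all genes were. Cd44 and Ephb2 were not called. The Wnt11 call (-0.41) was lost without any 1 of late proximal 2 and 3 and late distal 1 to 5 (adjusted p up to 0.121). Over the list the median difference was 1.76 in late mice and 0.008 in untreated mice. Notum, a secreted enzyme that removes the lipid from Wnt ligands and so inactivates them, read 4.68, 5.02, 5.97 and 6.63 in late proximal arrays and 9.93 to 11.41 (median 11.02) in late distal arrays. The distal arrays lay 38.8-fold above the proximal arrays on average, a difference of 5.28 ± 0.40 SE (adjusted p = 3.87e-06). In untreated mice the region difference of Notum did not pass the test (0.23 ± 0.30 SE, adjusted p = 0.622), and its median was 4.63 in proximal and 4.74 in distal colon.

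Other feedback inhibitors of the pathway showed the same order. Nkd1, which binds Dishevelled, read 7.21, 7.02, 7.08 and 7.38 in proximal and 9.38 to 10.90 (median 10.24) in distal arrays, a difference of 3.01 ± 0.26 SE (adjusted p = 8.54e-06). Axin2, a scaffold of the complex that destroys β-catenin, read 10.34, 9.95, 10.38 and 10.04 and 12.07 to 12.70 (median 12.23), a difference of 2.16 ± 0.16 SE (adjusted p = 3.59e-06). Dkk2, a secreted antagonist, differed by 4.38 ± 0.36 SE (adjusted p = 6.74e-06). Apcdd1, a membrane inhibitor, differed by 3.42 ± 0.45 SE (adjusted p = 0.000151), and Rnf43, a ubiquitin ligase that removes Frizzled receptors, by 2.15 ± 0.25 SE (adjusted p = 7.45e-05). The homologue Nkd2 went the other way (-0.90 ± 0.17 SE, adjusted p = 0.0017).

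Other members of the list act in stem cells, growth or development. Lgr5, the R-spondin receptor that marks crypt stem cells, read 5.89, 6.03, 6.37 and 4.80 in proximal and 7.55 to 8.99 (median 8.17) in distal arrays and differed by 2.45 ± 0.33 SE (adjusted p = 0.000197). Ascl2, a stem cell transcription factor, differed by 1.66 ± 0.22 SE (adjusted p = 0.000181), Sp5 by 3.17 ± 0.33 SE (adjusted p = 3.58e-05) and Myc, a driver of growth, by 1.42 ± 0.15 SE (adjusted p = 3.96e-05). Prox1, a homeobox factor induced by Wnt in colon tumours, read 8.52 to 9.54 in proximal and 11.73 to 12.33 in distal arrays (2.74 ± 0.21 SE, adjusted p = 3.57e-06). Lef1 was called (2.44 ± 0.54 SE, adjusted p = 0.00417), but late proximal 1, at 10.67, lay within the distal range of 10.45 to 11.72. Cd44, an adhesion receptor often used to mark Wnt activity, read 11.19 to 11.88 and 11.57 to 11.89 and did not pass the test (0.25 ± 0.13 SE, adjusted p = 0.165), although without late proximal 1 it did (0.38, adjusted p = 0.02).

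Genes of cell division differed by little. Of 29 measured genes of DNA replication and mitosis, 16 were called higher and none lower by limma, where 21.7% and 19% of all genes were. The list's median difference was 0.48. The fit of all 28 arrays called 9 of the 29 higher. Bub1, a spindle checkpoint kinase, differed by 0.75 ± 0.14 SE (adjusted p = 0.00144) and Foxm1, a factor of mitotic genes, by 0.72 ± 0.18 SE (adjusted p = 0.00815). Foxm1 was not called in the fit of all 28 arrays (adjusted p = 0.0787). Mki67, the Ki-67 antigen of cycling cells, was high in both regions (11.34 to 11.58 and 11.40 to 11.88) and was not called (0.27 ± 0.11 SE, adjusted p = 0.0756). It was called without late distal 4 (0.34, adjusted p = 0.0198). Without late proximal 3 and 4 the list held 3 calls of higher genes. In that setting 1632 of all 14122 genes were called higher and 1430 lower, so the list was near the background. Of 18 measured ribosome biogenesis genes, 14 were called higher, with a median of 0.42. The nucleolar protein gene Nop56 led them (0.66 ± 0.12 SE, adjusted p = 0.00152), and here too 3 calls were left without late proximal 3 and 4. Genes of the mitochondrial respiratory chain went the other way, with 17 of 20 called lower and a median of -0.38. That count was 9 without late proximal 2, 11 without late proximal 3, 10 without late proximal 4, 4 without both of the last and 6 without late distal 2, 3 and 5.

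**Figure D2:**
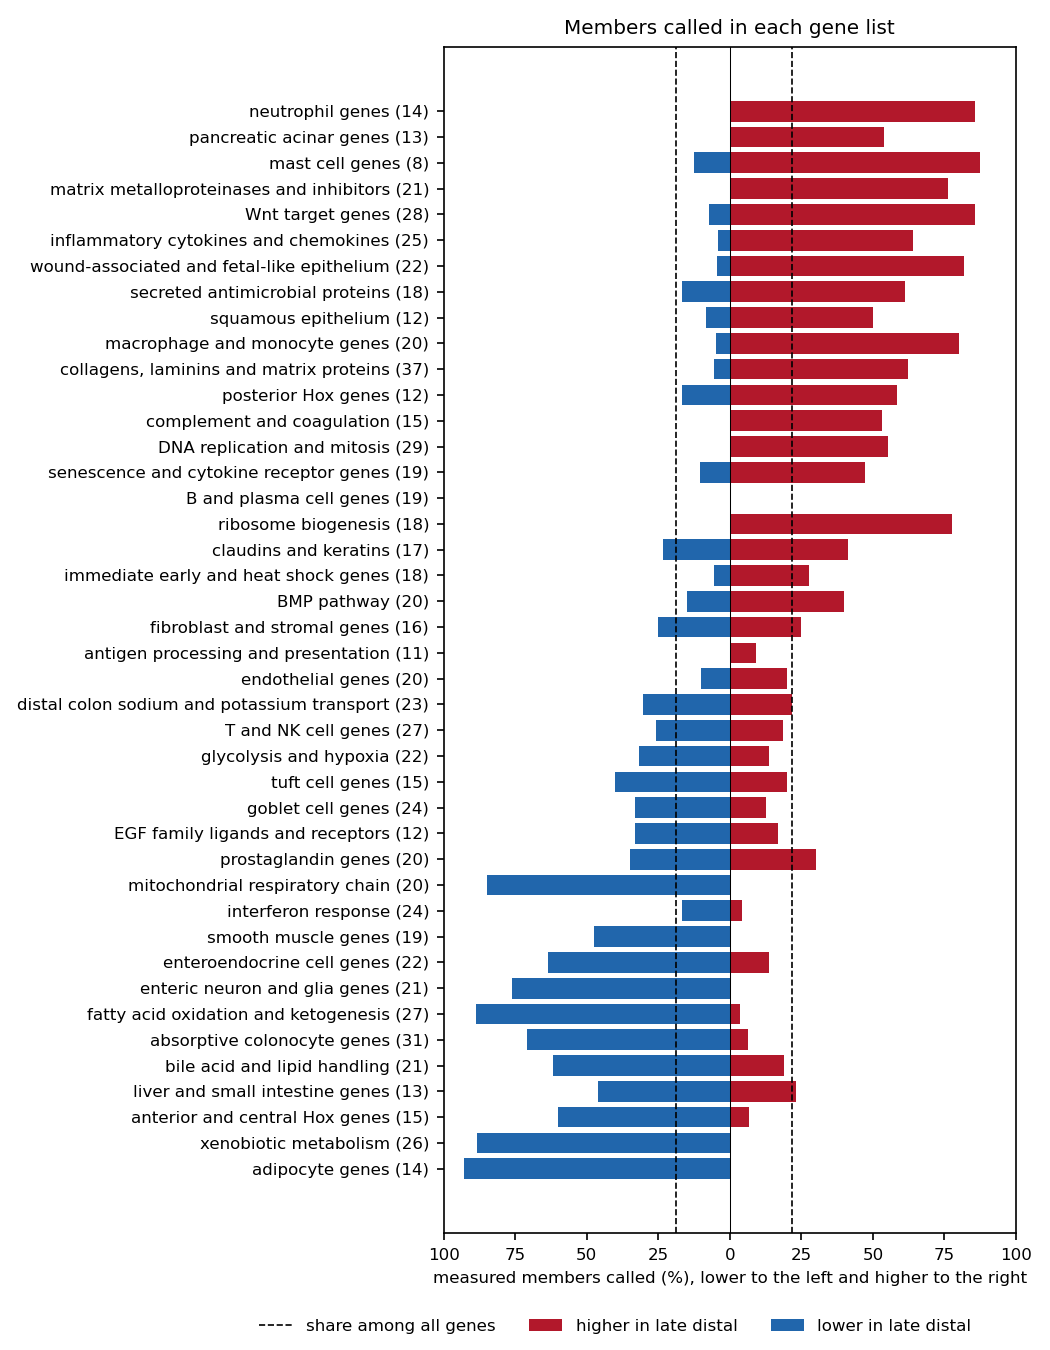
Each bar gives the share of a list's measured members (number in brackets) called higher (right) or lower (left) in late distal than in late proximal colon, for lists with at least 8 measured members ordered by median difference; dashed lines are the shares among all genes, 21.7% and 19%. Mast cell, Wnt target and neutrophil genes reach furthest right, and adipocyte, fatty acid oxidation and xenobiotic genes furthest left.

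Neutrophil transcripts were among the widest differences. Of 19 listed, 14 were measured and 12 called higher, where 21.7% of all genes were. The list's median was 3.09 in late and -0.12 in untreated mice. S100a8, a subunit of calprotectin, read 7.78, 6.78, 8.40 and 6.07 in late proximal arrays and 12.07 to 12.999 (median 12.29) in late distal arrays, a difference of 5.11 ± 0.38 SE (adjusted p = 3.6e-06). S100a9, the other subunit, differed by 5.05 ± 0.39 SE (adjusted p = 4.28e-06). Csf3r, the receptor for the cytokine that drives neutrophil production, read 5.24, 4.04, 4.29 and 3.80 and 6.26 to 7.24 (median 6.43) and differed by 2.30 ± 0.30 SE (adjusted p = 0.00014). Clec4d, a lectin receptor of myeloid cells, differed by 4.32 ± 0.24 SE (adjusted p = 8.14e-07). Neither calprotectin gene passed the test in untreated mice (S100a8 0.44 ± 0.46 SE, adjusted p = 0.524 and S100a9 0.36 ± 0.52 SE, adjusted p = 0.655). Ltf, lactoferrin of neutrophil granules and glands, read 5.18, 4.97, 5.08 and 4.71 in proximal and 7.46 to 11.73 (median 8.50) in distal arrays (4.05 ± 0.77 SE, adjusted p = 0.00175). In these tissue extracts, more cells of a type and more RNA per cell cannot be told apart.

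Among 25 measured cytokine and chemokine genes, 16 were called higher and 1 lower, where 21.7% and 19% of all genes were. Cxcl5, a chemokine that attracts neutrophils, read 4.13, 2.76, 6.08 and 4.53 in late proximal arrays and 10.11 to 10.98 (median 10.76) in late distal arrays. At 6.22 ± 0.49 SE (adjusted p = 4.79e-06) it was the widest difference of the list, and the groups were far apart. Without the 2 arrays its untreated regions differed by 2.13, as a description, and with all 12 arrays they did not pass the test (adjusted p = 0.06). Cxcl2, another neutrophil chemokine, differed by 4.29 ± 0.41 SE (adjusted p = 1.84e-05). Il1b, the interleukin that starts much of acute inflammation, read 7.79, 6.15, 7.85 and 6.02 and 11.16 to 12.25 (median 11.39), a difference of 4.62 ± 0.40 SE (adjusted p = 8.46e-06). Il11, a stromal cytokine that acts through gp130, read 5.22, 5.23, 5.997 and 5.07 and 8.53 to 10.32 (median 9.35), and Il23a, a subunit of interleukin 23, differed by 3.58 ± 0.40 SE (adjusted p = 5.94e-05). The 1 gene called lower was Ccl5, a T cell chemokine, at 10.26, 8.52, 8.54 and 8.63 in proximal and 6.77 to 7.98 (median 7.44) in distal arrays (-1.58 ± 0.35 SE, adjusted p = 0.0043). In the fit of all 28 arrays Ccl5 was not called (adjusted p = 0.0596). Without the 2 arrays Ccl5 was also lower in untreated distal colon (-2.29, a description), and with all 12 arrays it did not pass the test (adjusted p = 0.052).

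Matrix metalloproteinases, which cut matrix proteins, and their inhibitors were called higher in 16 of 21 measured genes and lower in none by limma. The background over all genes was 21.7% higher and 19% lower, and the list's median was 1.79. Mmp10 (stromelysin 2) read 7.57, 6.18, 8.995 and 6.49 in late proximal and 11.80 to 12.38 (median 12.20) in late distal arrays, a difference of 4.82 ± 0.44 SE (adjusted p = 1.37e-05). Mmp7 (matrilysin), an epithelial protease, read 9.86, 7.69, 9.47 and 8.54 and 12.60 to 13.10 (median 12.91), a difference of 3.98 ± 0.34 SE (adjusted p = 8.71e-06). Mmp13, a collagenase, read 6.67, 5.99, 7.30 and 6.31 and 10.12 to 10.94 (median 10.43) and differed by 3.93 ± 0.25 SE (adjusted p = 1.4e-06). All 3 had groups that did not overlap. Mmp12, the macrophage elastase, differed by 4.12 ± 0.35 SE (adjusted p = 7.57e-06) and Timp1, an inhibitor of these enzymes, by 3.09 ± 0.27 SE (adjusted p = 8.46e-06).

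Several metalloproteinase genes lie in a cluster on chromosome 9, and 3 of them are shown here because their promoter windows hold the same short match close to the start. The letters TGACTCA, the site of AP-1 (Fos and Jun dimers), were searched on both strands (TGAGTCA on the other) in the 250 bases before each RefSeq gene start (GRCm38.p6). Some genes have several starts and so several windows. The last 100 bases before the start follow, on the plus strand, with the match in capitals.
Mmp7, chr9:7691990-7692089: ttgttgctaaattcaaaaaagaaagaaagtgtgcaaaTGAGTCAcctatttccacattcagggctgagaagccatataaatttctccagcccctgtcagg
Mmp10, chr9:7502242-7502341: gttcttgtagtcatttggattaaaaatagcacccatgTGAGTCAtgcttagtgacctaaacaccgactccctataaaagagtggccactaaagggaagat
Mmp13, chr9:7272414-7272513: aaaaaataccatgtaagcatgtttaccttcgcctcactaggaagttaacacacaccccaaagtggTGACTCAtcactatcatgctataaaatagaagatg
The match began at base -63 in Mmp7 and Mmp10 and at base -35 in Mmp13, counted from the start. Of the 11 list members that were called higher and had a window, 6 held a match (Mmp3, Mmp7, Mmp10, Mmp12, Mmp13 and Plaur), as did 0 of the other 4 measured members and 5.16% of 27025 genes with a window. A gene was counted if any of its windows held a match. For Mmp12 the window at the gene start held none, and the match lay in another window. All of the 6 except Plaur are metalloproteinase genes on chromosome 9, so they are not independent counts, and no link of the match to the rise was tested. Of the AP-1 genes themselves, Jun was called higher (0.32). Its call was lost without late proximal 2 (adjusted p = 0.0564) and in the fit of all 28 arrays (adjusted p = 0.282). Fos, Fosb, Fosl1, Fosl2, Junb and Jund were not called. Fos was called lower without late distal 6 (adjusted p = 0.0373) and Fosb higher without late distal 5 (adjusted p = 0.0467). Junb was called higher without late distal 2 (adjusted p = 0.0421) and in the fit of all 28 arrays (adjusted p = 0.0435). The TCF/LEF letters CTTTGAT, on either strand, were in windows of 3 of 14 Wnt target genes called higher (Sp5, Tnfrsf19 and Mmp7), of 1 of 4 other measured members (Wnt11) and of 3.72% of all genes. The TCF/LEF match of Mmp7 lay in a window other than that printed. A match is a description of the sequence and shows no binding.

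Structural matrix genes followed at smaller size, with 23 of 37 called higher and a median of 0.82. Lox, which crosslinks collagen, differed by 2.27 ± 0.27 SE (adjusted p = 8.44e-05), and Lama1, a laminin chain, by 1.95 ± 0.19 SE (adjusted p = 2.25e-05). Lum and Col14a1 were called lower, and the Lum call was lost without any 1 of late proximal 3 and 4 and late distal 1, 3 and 6 (adjusted p up to 0.1). The list of fibroblast and stromal genes was split, with 4 of 16 called higher (Il11, Inhba, Grem1 and Pi16) and 4 lower (Ogn, Cd34, Dpt and Fap). Among all genes 21.7% were called higher and 19% lower. Without late proximal 1 the count higher was 7, without late proximal 4 or in the fit of all 28 arrays the count lower was 2, and without late proximal 3 and 4 the counts were 2 and 1. The calls of Pi16 and Cd34 were each lost without any 1 of 7 arrays (adjusted p up to 0.152 and 0.119), and that of Ogn without late proximal 4 (adjusted p = 0.0601). Inhba, which encodes the subunit of activin A, read 5.04, 5.16, 5.19 and 5.22 in proximal and 8.07 to 9.52 (median 8.52) in distal arrays, a difference of 3.55 ± 0.26 SE (adjusted p = 3e-06). Plat, tissue plasminogen activator, led 8 of 15 measured complement and coagulation genes called higher (3.55 ± 0.30 SE, adjusted p = 7.41e-06).

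The counts of macrophage and mast cell genes stand beside 21.7% of all genes called higher and 19% called lower. Macrophage genes were higher in 16 of 20 measured, with 1 lower and a median of 0.88. The widest were Spp1, or osteopontin (5.02 ± 0.29 SE, adjusted p = 1.09e-06), Acod1, the enzyme that makes itaconate (4.70 ± 0.44 SE, adjusted p = 1.48e-05), and Arg1, or arginase 1 (4.34 ± 0.30 SE, adjusted p = 2.46e-06). Arg1 read 6.09, 6.27, 7.10 and 6.12 in late proximal and 9.90 to 11.54 (median 10.71) in late distal arrays, with no overlap. General macrophage markers differed by less, as C1qa of the complement system did (0.55 ± 0.12 SE, adjusted p = 0.00339). The C1qa call was lost in the fit of all 28 arrays (adjusted p = 0.207). Cd163, a scavenger receptor of tissue-resident macrophages, was lower at 5.23 to 6.97 in distal against 7.49 to 7.91 in proximal arrays (-1.53 ± 0.29 SE, adjusted p = 0.00165). Mast cell genes were higher in 7 of 8 measured, led by the mucosal mast cell proteases Mcpt2 (4.70 ± 0.30 SE, adjusted p = 1.54e-06) and Mcpt1 (4.45 ± 0.29 SE, adjusted p = 1.83e-06). Mcpt2 read 4.92, 4.96, 6.45 and 5.51 in proximal and 9.49 to 10.55 (median 10.22) in distal arrays. Cpa3, the mast cell carboxypeptidase, differed by 2.03 ± 0.35 SE (adjusted p = 0.000864). The 1 gene called lower was Kit (-1.18 ± 0.16 SE, adjusted p = 0.00023), a receptor that mast cells share with interstitial cells of Cajal. Mcpt1 and Mcpt2 are closely related genes, and whether their probe sets read both was not tested.

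Lymphocyte genes had no common direction. The counts here and for endothelial genes stand beside 21.7% of all genes called higher and 19% called lower. Of 27 measured T and NK cell genes, 5 were called higher (Pdcd1, Ctla4, Tnfrsf4, Tnfrsf18 and Foxp3) and 7 lower. Each of these 5 except Pdcd1 lost its call without late proximal 2 (adjusted p from 0.051 for Ctla4 to 0.0774 for Foxp3). Those lower were cytotoxic cell genes and Cd3g, with Cd8a, a chain of the CD8 co-receptor, at 10.05, 8.25, 8.29 and 7.99 in proximal and 6.44 to 7.44 (median 6.98) in distal arrays (-1.67 ± 0.35 SE, adjusted p = 0.00326). Nkg7, a granule protein, differed by -1.45 ± 0.25 SE (adjusted p = 0.00108) and Gzma, granzyme A, by -1.23 ± 0.22 SE (adjusted p = 0.00115); both were also lower in untreated distal colon (Nkg7 -2.02, Gzma -4.44). Pdcd1, the PD-1 receptor, differed by 1.38 ± 0.33 SE (adjusted p = 0.00616). Late proximal 1 carried far more T cell RNA than the other arrays (list mean 1.12, against -0.40 to 0.07 in the other 9). Without it 11 T and NK cell genes were called higher. The count was 1 without late proximal 2, 3 without late proximal 3 or late proximal 4, and 0 without both of the last. The fit of all 28 arrays called 3 lower, and Gzma (adjusted p = 0.174) and Cd3g (adjusted p = 0.132) lost their calls there. In the 19 measured B and plasma cell genes none was called by limma, and without late proximal 1, whose list mean was 1.21 against -1.39 to -0.05 in the other proximal arrays, 12 were called higher. Endothelial genes gave 4 calls higher (Selp, Icam1, Pdpn and Apln) and 2 lower (Tek and Lyve1) of 20, with 8 higher and 0 lower without late proximal 1, 0 lower without late proximal 4, 1 lower without late distal 1 or 6 and 2 higher without late proximal 3 and 4.

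Interferon response genes were mostly not called, with 1 higher and 4 lower of 24, where 21.7% and 19% of all genes were. The 1 higher was Gbp2, a GTPase induced by interferon-γ (1.52 ± 0.36 SE, adjusted p = 0.00619). Oas3, a sensor enzyme of viral RNA, differed by -2.01 ± 0.43 SE (adjusted p = 0.00353) and Irf7, the factor that amplifies type I interferon, by -1.58 ± 0.25 SE (adjusted p = 0.000483). In untreated mice without the 2 arrays 18 of the 24 were called lower in distal colon, against 14.4% of all genes. For genes that follow region the adjusted p of that fit is too small. The list's median was -1.60 in untreated mice against -0.44 in late mice. Without late proximal 1, 7 were called lower in late mice. Of 11 measured antigen presentation genes, 1 was called (Cd74, higher), with 3 calls without late distal 5 and none by limma without late proximal 2 or 4 or without late distal 1, 2, 3, 4 or 6.

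Secreted antimicrobial proteins gave 11 of 18 called higher and 3 lower, where 21.7% and 19% of all genes were. Lcn2, or lipocalin 2, which withholds iron from bacteria, read 7.60, 7.32, 9.27 and 7.35 in late proximal and 11.96 to 12.89 (median 12.51) in late distal arrays, a difference of 4.59 ± 0.35 SE (adjusted p = 3.96e-06). Pla2g2a, a phospholipase that lyses bacteria, differed by 4.24 ± 0.25 SE (adjusted p = 1.24e-06), and Slpi, an inhibitor of neutrophil elastase, by 3.14 ± 0.43 SE (adjusted p = 0.000219). Reg3g, a lectin that kills Gram-positive bacteria, went the other way at 13.40, 12.67, 11.98 and 11.97 and 8.19 to 11.34 (median 10.66) (-2.35 ± 0.59 SE, adjusted p = 0.00873). Its untreated difference was wider, at -8.05 (-6.08 ± 1.11 SE, adjusted p = 0.00947, with all 12 arrays), with medians of 12.55 in proximal and 4.61 in distal colon. Also lower were Reg4 and Retnlb; the call for Retnlb was lost without late proximal 2 (adjusted p = 0.062) and without late proximal 3 (adjusted p = 0.0525). The Reg4 call (-0.29) was lost without any 1 of late proximal 2 and 3 and late distal 1, 3 and 6 (adjusted p up to 0.103). In the fit of all 28 arrays none of the 3 was called by limma (adjusted p = 0.168 for Reg3g, 0.109 for Reg4 and 0.278 for Retnlb).

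Genes of the absorptive colonocyte were lower in the late distal colon. Of 31 measured, 22 were called lower and 2 higher (Atp12a and Saa1), where 19% and 21.7% of all genes were. In the fit of all 28 arrays 1 was called higher. The list's median was -1.17 in late and -0.27 in untreated mice. Aqp8, a water channel of the surface epithelium, read 11.999, 12.08, 12.52 and 12.55 in late proximal and 7.67 to 11.27 (median 9.55) in late distal arrays. The distal values were spread over more than 3 log2 units, with late distal 4 the highest at 11.27, and the difference was -2.95 ± 0.56 SE (adjusted p = 0.00176). The untreated regions did not pass the test for Aqp8 (-0.30 ± 0.42 SE, adjusted p = 0.643). Slc26a3, the chloride and bicarbonate exchanger, differed by -1.41 ± 0.32 SE (adjusted p = 0.00462) and likewise did not pass in untreated mice (0.07 ± 0.24 SE, adjusted p = 0.862). Slc37a2, a sugar phosphate exchanger, read 11.65, 12.10, 12.45 and 12.21 and 7.55 to 9.24 (median 8.52), a difference of -3.64 ± 0.32 SE (adjusted p = 1.05e-05). Tmigd1, an adhesion protein of epithelial cells, differed by -5.32 ± 0.50 SE (adjusted p = 1.66e-05). In untreated mice without the 2 arrays it differed by -3.80, as a description with no test. Krt20 differed by -0.81 ± 0.15 SE (adjusted p = 0.00122).

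Secretory lineages were split, and their counts stand beside 21.7% of all genes called higher and 19% called lower. Of 24 measured goblet cell genes, 8 were called lower and 3 higher (Mptx1, Muc1 and Sval1), while 13 were not called. Without late proximal 3 and 4 the count lower was 4. Muc2, the main gel-forming mucin, was high throughout at 13.35 to 13.63 in proximal and 12.70 to 13.08 in distal arrays and differed by -0.48 ± 0.10 SE (adjusted p = 0.00355). The Muc2 call was lost in the fit of all 28 arrays (adjusted p = 0.104). Spdef, a factor of goblet cell maturation, differed by -1.18 ± 0.19 SE (adjusted p = 0.000671), and B3gnt6, which builds core 3 O-glycans of mucins, by -3.35 ± 0.42 SE (adjusted p = 0.000109). Muc1, a membrane mucin, read 5.47, 5.89, 6.55 and 6.14 and 9.02 to 10.26 (median 9.70), a difference of 3.70 ± 0.26 SE (adjusted p = 2.5e-06). Enteroendocrine genes were called lower in 14 of 22 and higher in 3 (Isl1, Insl5 and Pyy). The Pyy call (0.59) was lost without any 1 of late proximal 1 and 3 and late distal 4, 5 and 6 (adjusted p up to 0.0805). The granule protein Chga differed by -1.35 ± 0.22 SE (adjusted p = 0.000693) and Tph1, which makes serotonin, by -1.99 ± 0.21 SE (adjusted p = 3.22e-05). Hormone genes with a regional pattern led the list: Sct (secretin) differed by -3.78 ± 0.21 SE (adjusted p = 8.14e-07) and Nts (neurotensin) by -3.83 ± 0.24 SE (adjusted p = 1.42e-06), against -3.61 and -7.21 in untreated mice, and Insl5, a hormone of the hindgut, was higher (3.19 ± 0.69 SE, adjusted p = 0.00362; untreated 5.22). Isl1, a homeobox factor, was also higher (3.51 ± 0.27 SE, adjusted p = 3.96e-06).

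Tuft cell genes, of a chemosensory lineage, gave 6 called lower and 3 higher of 15 (3 lower without late proximal 3 and 4). Among all genes 19% were called lower and 21.7% higher. Dclk1, a marker kinase of tuft cells, was lower (-1.22 ± 0.32 SE, adjusted p = 0.0113), but Avil, an actin regulator on the same list, was higher. Avil read 6.46, 6.74, 7.10 and 7.05 in late proximal and 8.89 to 10.76 (median 10.05) in late distal arrays, with no overlap and a difference of 3.12 ± 0.31 SE (adjusted p = 2.33e-05). Also higher were Alox5ap and Hpgds, the call of Hpgds being lost without late proximal 2 (adjusted p = 0.0523). Genes of wound-associated and fetal-like epithelium were higher in 18 of 22 measured and lower in 1 (Sprr1a). The Sprr1a call was lost without any 1 of the 4 proximal arrays and late distal 1 to 4 (adjusted p up to 0.0913), with array weights (adjusted p = 0.0696) and in the fit of all 28 arrays (adjusted p = 0.27). Sox17, a factor of endoderm development, read 7.995, 6.35, 7.46 and 7.63 and 8.64 to 11.24 (median 10.67), a difference of 3.06 ± 0.47 SE (adjusted p = 0.000436), with late distal 2 the lowest of its group. Krt23, a keratin, differed by 3.73 ± 0.33 SE (adjusted p = 1.07e-05), Clu, or clusterin, by 1.62 ± 0.29 SE (adjusted p = 0.0013), and Ctse, or cathepsin E, by 3.31 ± 0.31 SE (adjusted p = 1.68e-05); Ctse was also higher in untreated distal colon (5.20; 3.54 ± 0.83 SE, adjusted p = 0.0149, with all 12 arrays).

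Squamous genes were uneven among the late distal arrays. Of 23 listed, 12 were measured, 6 were called higher and 1 lower, where 21.7% and 19% of all genes were. The gene called lower was Sprr1a, whose call was lost without any 1 of 8 arrays. Krt14, a keratin of basal squamous cells, read 4.85, 5.01, 5.88 and 5.53 in late proximal arrays and 9.85, 8.49, 8.52, 9.02, 11.53 and 10.19 in late distal arrays 1 to 6. Every distal array was above every proximal array, late distal 5 and 6 being highest, and the difference was 4.28 ± 0.53 SE (adjusted p = 0.000113). Krt6a, a keratin of stratified and injured epithelium, read 10.98 in late distal 5 and 9.16 in late distal 6, against 5.92 to 8.08 in the other 4 and 4.74 to 5.17 in proximal arrays (2.87 ± 0.83 SE, adjusted p = 0.0176). The list mean was 2.29 in late distal 5, 1.03 in late distal 6 and at most 0.33 in the other 8 arrays. How much anal or rectal lining an array held was not tested.

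Metabolic genes of the enterocyte were lower in the late distal colon. Of 45 xenobiotic metabolism genes listed, 26 were measured. By limma 23 were called lower, where 19% of all genes were, and none higher. The list's median was -1.84 in late and -0.72 in untreated mice. Ugt2b5, a glucuronosyltransferase, read 10.46, 10.98, 11.10 and 10.95 in late proximal and 2.99 to 6.45 (median 4.06) in late distal arrays, a difference of -6.62 ± 0.53 SE (adjusted p = 5.35e-06) and nearly the same in untreated mice (-6.67). Cyp4b1, a cytochrome P450, differed by -4.70 ± 0.37 SE (adjusted p = 4.76e-06), Aldh1a1, a retinaldehyde dehydrogenase, by -3.57 ± 0.30 SE (adjusted p = 7.49e-06) and Fmo5, a flavin monooxygenase, by -3.30 ± 0.24 SE (adjusted p = 2.9e-06). Aldh1a1 was at 12.33 to 12.57 in the proximal arrays and at 8.40 to 9.97 in the distal ones. CYP2C8, a name of the authors' table without a matching mouse gene, differed by -5.26 ± 0.48 SE (adjusted p = 1.27e-05).

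The late counts of fatty acid and bile acid genes stand beside 19% of all genes called lower and 21.7% called higher. Genes of fatty acid oxidation and ketogenesis were called lower in 24 of 27, with 1 higher (Acsm3) and a median of -0.76. The Acsm3 call (0.51) was lost without any 1 of late proximal 1, 2 and 4 and late distal 2, 4 and 5 (adjusted p up to 0.0892) and in the fit of all 28 arrays (adjusted p = 0.174). In untreated mice without the 2 arrays their median was -0.66, and 19 were called lower, against 14.4% of all genes. The adjusted p of that fit is too small for genes that follow region. Ppara, a nuclear receptor that drives these genes, differed by -3.05 ± 0.25 SE (adjusted p = 6.66e-06) in late and -1.80 in untreated mice. Of 21 measured bile acid and lipid handling genes, 13 were called lower and 4 higher (Abcc2, Abcg5, Cyp27a1 and Abcg8, the last not without late proximal 4, adjusted p = 0.0574; 2 higher without late proximal 3 and 4). Slc10a2, the apical bile acid transporter, differed by -3.34 ± 0.43 SE (adjusted p = 0.000135), and Fabp1, a fatty acid binding protein, by -3.32 ± 0.24 SE (adjusted p = 2.78e-06). Abcc2, an exporter of conjugates, was higher at 7.34 to 9.43 in distal against 5.61 to 6.26 in proximal arrays (2.63 ± 0.35 SE, adjusted p = 0.000159), and its untreated regions did not pass the test (0.07 ± 0.28 SE, adjusted p = 0.88). Other wide falls were Alpi, or intestinal alkaline phosphatase (-5.14 ± 0.35 SE, adjusted p = 2.15e-06), Hkdc1, a hexokinase (-5.28 ± 0.33 SE, adjusted p = 1.4e-06), Acaa1b, a peroxisomal thiolase (-5.14 ± 0.35 SE, adjusted p = 2.36e-06), Slc13a1, a sulfate transporter (-4.82 ± 0.39 SE, adjusted p = 5.97e-06), Ugt8a, a galactosyltransferase (-4.53 ± 0.31 SE, adjusted p = 2.32e-06), and Slc47a1, an exporter of organic cations (-4.15 ± 0.60 SE, adjusted p = 0.000297). Without the 2 untreated arrays, as a description with no test, each of these 6 was also lower in untreated distal colon. The differences ran from -6.45 for Acaa1b to -4.37 for Slc13a1.

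Ion transport genes of the distal colon gave 5 of 23 called higher, where 21.7% of all genes were, and 7 lower, where 19% were (3 and 4 without late distal 2, 3 and 5, and 3 lower without late proximal 3 and 4). The subunits of the epithelial sodium channel, which reclaims sodium in the distal colon, were not called. Scnn1g read 4.29, 6.52, 4.51 and 6.54 in late proximal arrays and 5.91, 5.08, 5.10, 6.61, 8.10 and 8.26 in late distal arrays 1 to 6, and the groups overlapped (1.05 ± 0.74 SE, adjusted p = 0.281). Scnn1b differed by 0.11 ± 0.63 SE (adjusted p = 0.904) and Scnn1a by -0.29 ± 0.31 SE (adjusted p = 0.489). Untreated Scnn1a was higher in distal colon without the 2 arrays (1.40, a description with no test). Without late proximal 1, Scnn1a was called lower (-0.66, adjusted p = 0.0227). Cftr, the chloride channel, differed by -1.26 ± 0.18 SE (adjusted p = 0.00031). Of the prostaglandin genes, Ptgs2 (cyclooxygenase 2) was higher (1.78 ± 0.24 SE, adjusted p = 0.000198) and Hpgd, which breaks prostaglandins down, was lower (-1.15 ± 0.24 SE, adjusted p = 0.00301), and over the 20 genes 6 were called higher and 7 lower (3 and 3 without late proximal 3 and 4). Slco2a1, which takes prostaglandins up, read 10.70 to 11.12 in proximal and 9.04 to 9.98 in distal arrays (-1.52 ± 0.18 SE, adjusted p = 9.42e-05).

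The remaining lists held genes of both directions, and their counts stand beside 21.7% of all genes called higher and 19% called lower. Of 19 measured cytokine receptor and senescence genes, 9 were called higher and 2 lower (Cdkn1a and Il22ra2). The Cdkn1a call was lost without any 1 of late proximal 2, 3 and 4 (adjusted p up to 0.0722). Il1r2, a decoy receptor for interleukin 1, read 5.29, 4.37, 5.19 and 4.59 in late proximal and 7.23 to 8.41 (median 8.02) in late distal arrays, a difference of 3.06 ± 0.25 SE (adjusted p = 6.35e-06). Il1rl1, the interleukin 33 receptor, differed by 2.42 ± 0.26 SE (adjusted p = 4.05e-05) and Socs3, a feedback inhibitor of cytokine signalling, by 2.12 ± 0.34 SE (adjusted p = 0.000558). In the BMP pathway 8 of 20 were called higher and 3 lower (4 higher without late proximal 3 and 4), and those higher included the ligand Bmp7 (2.06 ± 0.33 SE, adjusted p = 0.000647) and the antagonist Chrdl2 (2.11 ± 0.20 SE, adjusted p = 2.01e-05). Of 12 EGF family genes 2 were called higher, led by the ligand Btc (1.11 ± 0.15 SE, adjusted p = 0.000152), and 4 lower, led by Nrg4 (-1.79 ± 0.23 SE, adjusted p = 0.000141), and the count lower was 2 without late proximal 2, 3 or 4. The count higher was 1 without any 1 of these or of late distal 4 and 6, and in the fit of all 28 arrays.

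Of 22 glycolysis and hypoxia genes 3 were called higher and 7 lower, where 21.7% and 19% of all genes were. The lactate exporter Slc16a3 led those higher (2.06 ± 0.26 SE, adjusted p = 0.000118), and the count lower was 4 without any 1 of late proximal 2, 3 and 4 and late distal 1, 2 and 5, while without late proximal 1 the count higher was 5. Claudins and keratins gave 7 higher and 4 lower of 17. The keratin Krt36 read 4.93, 5.42, 5.41 and 5.28 in proximal and 8.21 to 10.60 (median 9.08) in distal arrays (3.95 ± 0.40 SE, adjusted p = 2.71e-05), the tight junction gene Cldn8 differed by 1.96 ± 0.15 SE (adjusted p = 3.53e-06) and Cldn15 by -1.86 ± 0.24 SE (adjusted p = 0.000141). Cldn8 was also higher in untreated distal colon without the 2 arrays (1.80, a description with no test), and Krt36 did not pass the test there (0.19 ± 0.30 SE, adjusted p = 0.687). In the list of immediate early and heat shock genes, 5 of 18 were called higher and 1 lower, where 21.7% and 19% of all genes were. The counts were 3 higher without late proximal 2, 0 lower without late proximal 2 or 4 and 2 lower without late distal 6. The liver and small intestine list had 3 of 13 higher and 6 lower, and Alb, albumin, stood at 5.37, 5.24, 6.40 and 6.27 in proximal and 8.98 to 11.42 (median 10.54) in distal arrays (4.56 ± 0.44 SE, adjusted p = 2.04e-05).

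Genes of tissues around and beside the mucosa also separated the regions. Counts of adipocyte, nerve and muscle genes here stand beside 19% of all genes called lower. Of 14 measured adipocyte genes 13 were called lower in late distal colon. Adipoq, or adiponectin, read 11.06, 10.52, 10.06 and 11.60 in late proximal and 5.13 to 9.13 (median 7.73) in late distal arrays, a difference of -3.45 ± 0.68 SE (adjusted p = 0.00218). Enteric neuron and glia genes were called lower in 16 of 21 (10 without late proximal 3 and 4), with list means of 0.30 to 0.64 in proximal and -0.61 to 0.01 in distal arrays. Nefl, a neurofilament, differed by -1.97 ± 0.31 SE (adjusted p = 0.000578). Smooth muscle genes were called lower in 9 of 19 and in 3 without late proximal 3 and 4, with list means of 0.08 to 0.61 and -0.61 to 0.05. Differences in mucosal genes stood beside lower muscle, nerve and fat transcripts in distal arrays, and the part of tissue make-up in them was not tested.

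Pancreatic genes fell into 2 kinds. The acinar enzymes Cela2a and Cpa1 were raised in 3 late distal arrays, with Cela2a at 12.71, 10.93 and 7.78 in late distal 2, 3 and 5 and at most 5.02 in the other 7 arrays, and neither gene was called (Cela2a 2.89 ± 1.51 SE, adjusted p = 0.15). Pnliprp1, a lipase-related protein, was instead high in every late distal array (11.66 to 12.99, median 12.64) against 4.23, 4.96, 7.77 and 7.28 in the late proximal ones, a difference of 6.40 ± 0.62 SE (adjusted p = 2.17e-05). Pnliprp2, a lipase, read 8.99, 7.22, 8.69 and 8.02 and 11.97 to 13.04 (median 12.51) (4.27 ± 0.34 SE, adjusted p = 5.4e-06), and Rnase1, a secreted ribonuclease, differed by 5.15 ± 0.61 SE (adjusted p = 8.07e-05). Pnliprp1 and Rnase1 had their highest late distal value in late distal 2, and in untreated mice both were high in the arrays labelled proximal 1 and distal 1 (Pnliprp1 11.14 and 10.89).

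**Figure D3:**
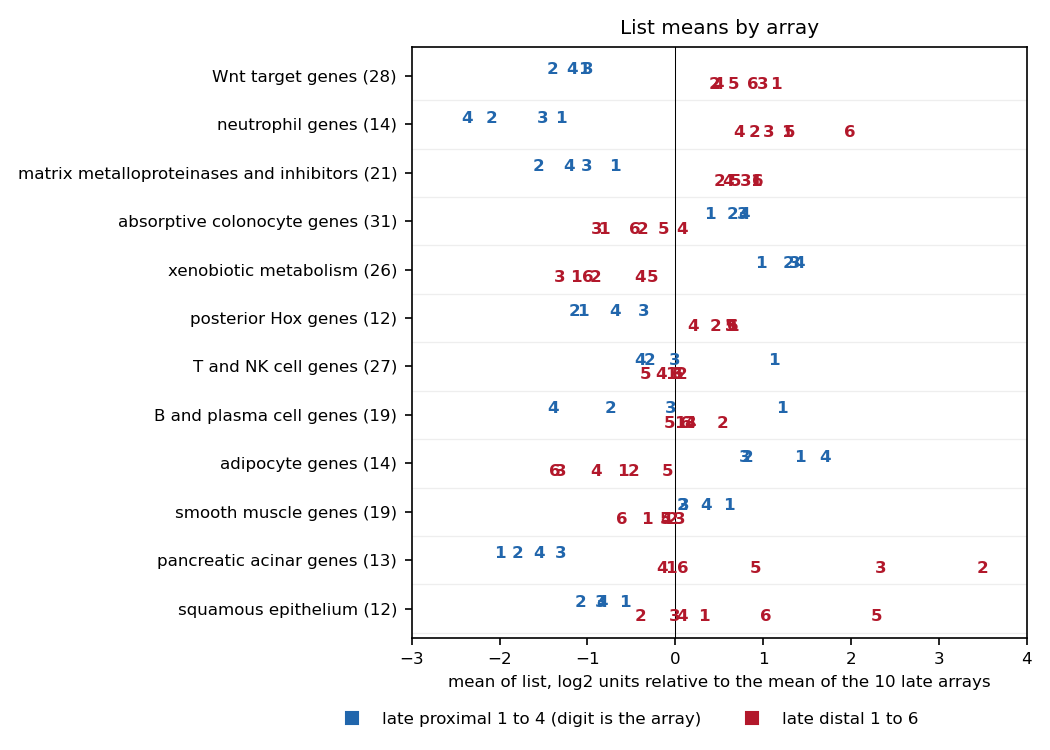
Each digit is 1 late array placed at its mean over the measured members of a list (horizontal axis, log2 units relative to the mean of the 10 late arrays; blue, late proximal 1 to 4; red, late distal 1 to 6). Wnt, neutrophil, metalloproteinase, xenobiotic and adipocyte means do not overlap between the regions, proximal array 1 stands apart for T cell (1.12) and B cell (1.21) genes, and distal arrays 2 and 3 for pancreatic genes (3.49 and 2.34).

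The late region difference was then set against that of untreated mice to see which part of it exists without treatment. Across the 14122 genes the late and untreated differences correlated with r = 0.50 (0.46 with all 12 untreated arrays), a description across genes that are not independent. Of the 3064 genes called higher in late distal colon, 673 (22%) were also called higher and 144 (4.7%) lower in untreated distal colon, while 2247 (73.3%) were not called there. Of the 2686 called lower, 1065 (39.7%) were also lower, 79 (2.94%) higher and 1542 (57.4%) not called. The background in untreated mice was 11.9% higher and 14.4% lower. With all 12 untreated arrays as labelled, 259 (8.45%) of the higher and 417 (15.5%) of the lower genes were shared, where the background was 3.81% and 4.86%.

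**Figure D4:**
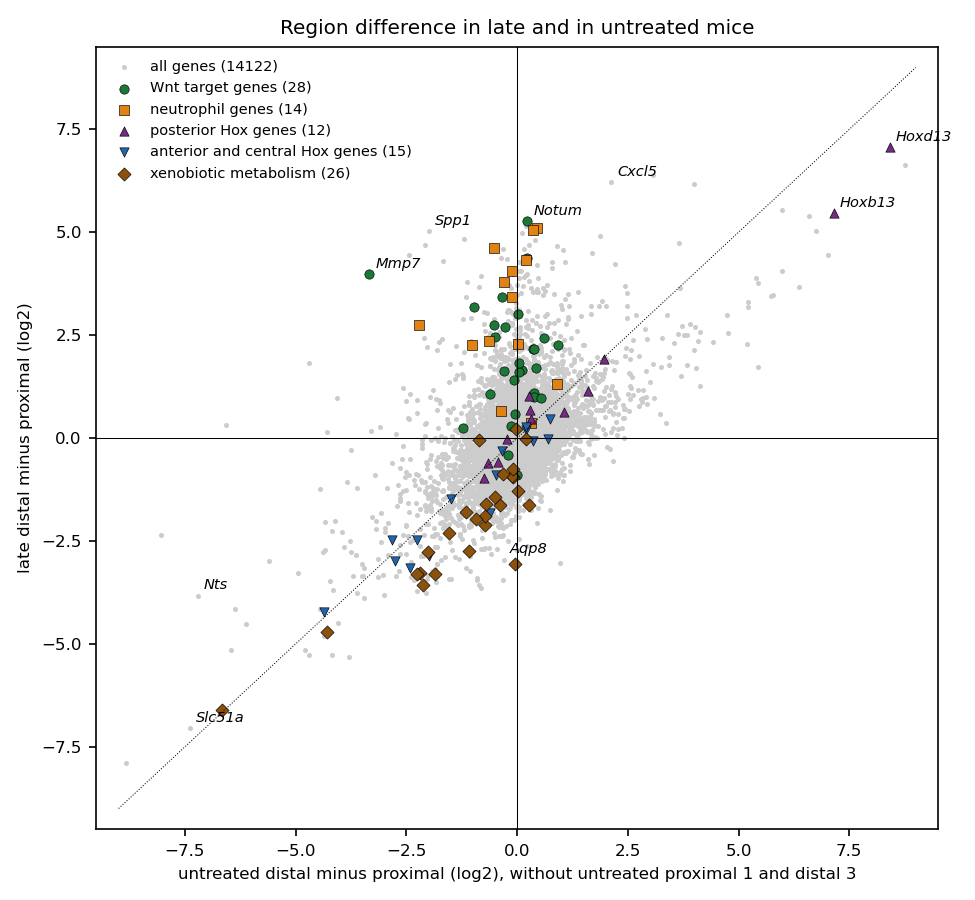
Each point is 1 gene, placed by its distal minus proximal difference in untreated mice (horizontal axis, log2, without 2 untreated arrays) and in late mice (vertical axis, log2), with 5 lists coloured; the dotted line marks equal differences. Hox genes such as Hoxd13 (8.42 untreated, 7.07 late) lie near the line, and Wnt target and neutrophil genes such as Notum (0.23 and 5.28) lie near zero on the horizontal axis and high on the vertical one.

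The test of the difference between the 2 region differences, with all arrays as labelled, called 2817 genes (19.9%), 1618 (11.5%) with a larger and 1199 (8.49%) with a smaller distal minus proximal value in late mice. Without the 2 untreated arrays it called 1873 (13.3%) and 1571 (11.1%), with an adjusted p too small for genes that follow region. The widest was Spp1, with 6.57 ± 0.66 SE (adjusted p = 5.89e-07). It read 5.55, 4.80, 6.28 and 5.24 in late proximal and 9.94 to 10.95 (median 10.53) in late distal arrays, and its untreated medians were 5.83 in proximal and 3.77 in distal colon, so its regional order was the opposite. Mmp7 (6.47 ± 0.73 SE, adjusted p = 2.89e-06), Mcpt2 (6.10 ± 0.69 SE, adjusted p = 3.17e-06) and Mcpt1 (6.09 ± 0.75 SE, adjusted p = 8.91e-06) also had opposite orders in the 2 states. In untreated mice all 3 were lower in distal colon (Mmp7 -3.34, Mcpt2 -2.09 and Mcpt1 -2.44), with medians of 3.81, 4.33 and 4.40 there. Rnase1 (5.88 ± 1.38 SE, adjusted p = 0.0048) and Mt4, a metallothionein (5.68 ± 0.70 SE, adjusted p = 8.88e-06), completed the 6 widest, and Mt4 read 5.04, 6.33, 7.76 and 8.02 in late proximal and 9.98 to 12.53 (median 11.81) in late distal arrays.

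On the other side, the 6 widest were Slc37a2 (-3.31 ± 0.54 SE, adjusted p = 0.000223), Adipoq (-3.12 ± 0.78 SE, adjusted p = 0.00756), Naaladl1, a peptidase (-3.10 ± 0.63 SE, adjusted p = 0.00167), Dpyd, which degrades pyrimidines (-2.97 ± 0.49 SE, adjusted p = 0.000274), Cyp2e1, a cytochrome P450 (-2.95 ± 0.73 SE, adjusted p = 0.00673), and CYP2C18, a name of the table without a matching mouse gene (-2.94 ± 0.61 SE, adjusted p = 0.00194). Slc37a2 had untreated medians of 12.82 and 12.18, near the late proximal arrays and above every late distal one. Of the Wnt target genes 24 of 28 were called with a larger distal minus proximal value in late mice, where 11.5% of all genes were. So were 11 of 14 neutrophil genes, 13 of 21 metalloproteinase genes, 9 of 29 replication genes and 1 of 12 posterior Hox genes. Without the 2 untreated arrays the replication count was 16, where 13.3% of all genes were called. Smaller values were called for 20 of 31 absorptive genes, 18 of 26 xenobiotic genes and 7 of 27 fatty acid oxidation genes, where 8.49% of all genes were. For Hoxd13 the test gave 1.38 ± 2.07 SE (adjusted p = 0.685) with all arrays and the value was -1.35 without the 2, and 0.34 for Slc51a. Without the 2 arrays, as a description with no test, Reg3g (5.70) and Nts (3.39) had less negative differences in late mice. With all arrays neither was called by limma (adjusted p = 0.12 and 0.64).

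Between late and early mice 396 genes (2.8%) had a larger and 87 (0.616%) a smaller distal minus proximal value. In the 6 early arrays 54.4% to 55% of the values checked carry a further last decimal of 5, against 9.19% to 11% in the other 22, as averages of a pair of arrays would, so their spread may be too small. The counts depended on single arrays. Without early proximal 3 they were 214 and 25, and without late proximal 2 they were 247 and 39. The number of smaller values was 179 without late proximal 1, 156 without late distal 4 and between 25 and 57 without any other array except early distal 3, late distal 2 and late distal 5. Itln1, an intelectin that binds microbial sugars, had the widest difference, 6.71 ± 1.10 SE (adjusted p = 0.00328). It read 9.91, 9.77 and 11.69 in early proximal and 6.15, 7.47 and 6.31 in early distal arrays, but 12.19, 7.99, 8.18 and 8.18 in late proximal and 11.26 to 12.74 (median 12.09) in late distal arrays. The early regions and the late regions thus stood in opposite order, except that late proximal 1 lay with the late distal arrays. Pnliprp2 followed with 5.71 ± 0.78 SE (adjusted p = 0.000705), and Il11 with 5.26 ± 1.07 SE (adjusted p = 0.0126).

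The remaining genes of the 6 widest were Cxcl5 (5.34), Bcl2l15, of the Bcl-2 family (5.26), and Mmp10 (5.20). In the other direction came Cpn2, a subunit of carboxypeptidase N (-2.29), Nxpe2 (-2.20), Chp2, a calcium-binding protein (-2.19), Inmt, a methyltransferase (-2.16 ± 0.30 SE, adjusted p = 0.000705), Eno3, muscle enolase (-1.91), and Tnni1, slow skeletal troponin I (-1.84). The calls for Itln1, Pnliprp2, Il11 and Inmt held when each of the 16 arrays was left out in turn, and each of the other 8 was lost without at least 3 of them, with adjusted p up to 0.116. Cxcl5, Mmp10 and Eno3 were also lost with array weights (adjusted p = 0.09, 0.0612 and 0.0675). S100a8 was high in both regions of early mice (11.73, 13.17 and 11.62 in proximal and 11.15, 13.34 and 12.96 in distal arrays), and the difference of region differences was 4.80 ± 0.76 SE (adjusted p = 0.00247). Il1b was likewise high in both early regions (9.12, 12.25 and 10.05 and 10.83, 11.46 and 12.43). The Wnt target Notum read 4.39, 4.83 and 4.70 in early proximal and 4.76, 5.51 and 4.85 in early distal arrays, and its difference between late and early was 4.88 ± 0.58 SE (adjusted p = 0.000204).

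**Figure D5:**
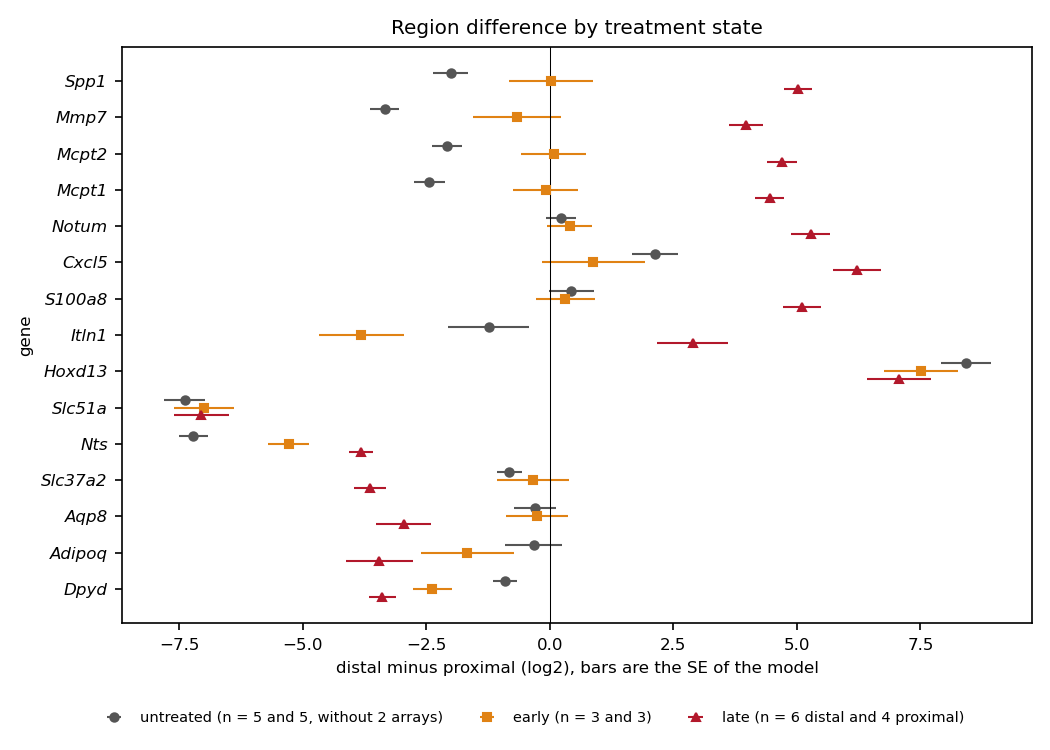
For 15 genes the distal minus proximal difference (horizontal axis, log2; bars, SE of the model) is shown in untreated (circles), early (squares) and late mice (triangles). Spp1, Mmp7, Mcpt1 and Mcpt2 lie below zero in untreated and between 3.98 and 5.02 in late mice, while Hoxd13 and Slc51a keep their sign in all 3 states.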

How the data were processed

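Colon RNA was isolated with Trizol, amplified with a NuGEN kit and hybridised to Affymetrix mouse arrays, per the labels' protocols. The authors deposited log2 expression values of 45101 probe sets, and the submitters' processing notes name RMA and Partek 6.5. Their deposited table of group means, also log2 values, matched means computed from the arrays within 0.0051, and its gene symbols named the probe sets. Of its 26933 probe sets, 19920 matched a RefSeq symbol and 1619 a synonym, 2293 kept the table's name, and 2721 without a name and 380 with several were left out, as were 18168 outside it. Each of 14122 genes was represented by its brightest probe set on average (5857 had several).

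Differences were fitted with limma 3.58.1 (R 4.3.3; lmFit and eBayes) on the 10 late arrays, with p-values adjusted by Benjamini and Hochberg's method over all 14122 genes and called below 0.05. The late minus untreated and late minus early region differences were contrasts over 22 and 16 arrays. The fits had 8, 18 and 12 residual degrees of freedom. Each fit was tested on simulated data. SE is that of the moderated fit. Genes named are the 14 largest rises and 14 largest falls among called genes without overlap, the 6 largest in each direction in each region-difference comparison, and up to 3 called members of each list and direction, with further list members where a list is described. The alternatives were a fit over all arrays, array weights, a variance trend, repeated normalization, other choices of probe set, a filter on dim genes, a 2-fold threshold, the replicate number as a block and each array left out. Other alternatives were added after the values had been seen, leaving out late distal 2, 3 and 5, late proximal 3 and 4, or late proximal 1 with late distal 2 and 3, and an adipocyte covariate. A few genes are not reported here. The members and the 43 gene lists (985 genes, 793 measured) were chosen with earlier results of these data known. List counts are descriptions, since genes outside the table were not tested. Promoter windows are RefSeq's (GRCm38.p6).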

Additional observations from a re-analysis of the deposited data

Results flagged for a closer look

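Among 502 groups of 4 to 6 arrays examined for a single array far from the others (416 of gene values and 86 of list means), 34 had one, where chance gives about 1 in 20. Late proximal 1 was the array in 15 of them. It was high for T cell genes, with Cd8a at 10.049, Nkg7 at 9.817 and Ccl5 at 10.258, for Itln1 at 12.19 and for the endothelial list mean at 0.575. It was also apart for Atoh1 at 9.593, Aldh1a1 at 12.329, Naaladl1 at 11.439, Slc47a1 at 7.079, Ptgs2 at 8.865, Slco2a1 at 10.7, Acsm3 at 10.242, Pyy at 11.044, Tnfrsf4 at 7.297 and the mitochondrial list mean at 0.055.

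Late distal 5 stood above the other distal arrays for 3 genes that are high in proximal colon, Slc51a at 7.135, Osr2 at 5.916 and Hoxb6 at 6.085. Late proximal 3 stood above the other proximal arrays for Hoxd13 at 7.523 and Lcn2 at 9.272. The other arrays apart from their group were late distal 4 for Hoxd13 at 11.321 and Mki67 at 11.396, late distal 1 for Bub1 at 9.291 and Muc2 at 12.703, late distal 2 for Sox17 at 8.638 and Hoxb9 at 9.96, late distal 6 for Hoxc9 at 6.069, Jund at 5.632, Lyve1 at 8.108 and Wnt11 at 5.513, late proximal 2 for Prox1 at 8.516, Krt6a at 4.74 and Fosl2 at 12.281, and late proximal 4 for Gbp2 at 9.404.

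The region difference was not the same in late and untreated mice for 12 named genes by the test of the difference itself. It was larger in late mice by 6.569 for Spp1, 6.466 for Mmp7, 6.096 for Mcpt2, 6.085 for Mcpt1, 5.881 for Rnase1 and 5.683 for Mt4. The value was -3.309 for Slc37a2, -3.118 for Adipoq, -3.103 for Naaladl1, -2.973 for Dpyd, -2.95 for Cyp2e1 and -2.937 for CYP2C18. Each of these 12 calls held when each of the 22 arrays was left out in turn.

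Between late and early mice the difference of region differences was 6.705 for Itln1, 5.705 for Pnliprp2, 5.338 for Cxcl5, 5.264 for Bcl2l15, 5.26 for Il11 and 5.198 for Mmp10. It was -2.29 for Cpn2, -2.198 for Nxpe2, -2.185 for Chp2, -2.155 for Inmt, -1.911 for Eno3 and -1.838 for Tnni1. Of these 12, the calls of Itln1, Pnliprp2, Il11 and Inmt held with each of the 16 arrays left out in turn.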

How the results depend on the processing

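In late distal against late proximal colon, the calls (3064 higher, 2686 lower) numbered 5414 and 4978 over all probe sets, where more features were tested, 871 and 818 at 2-fold or more, 1632 and 1430 without late proximal 3 and 4, 2046 and 1976 with the replicate block, and 2401 to 3321 and 2146 to 2918 with each array left out in turn. An adipocyte covariate left 72 and 64 and reversed the sign of Adipoq (1.223), Cyp2e1 (0.241), Lep (0.968), Nkd2 (0.048), Gbp2 (-0.204), Cd34 (0.37), Lum (0.25), Lyve1 (0.036) and Tek (0.104), and averaging probe sets reversed Synpo2 (0.083) and Fosl2 (-0.263). The cause was not tested, the adipocyte mean does not overlap between the groups, and Adipoq and Lep are part of it. Means of other lists, such as Wnt target and neutrophil genes, do not overlap either and were not used as covariates. List members called (498) ranged from 438 to 533 with each array left out. For the late against untreated difference (1618 larger, 1199 smaller), array weights gave 2646 and 2434, all probe sets 2752 and 1861, a 2-fold threshold 739 and 532, the replicate block 1273 and 1000, untreated arrays 1 to 3 alone 776 smaller, and leaving out each array 1259 to 1785 and 841 to 1352. For late against early (396 and 87), array weights gave 774 and 263, a 2-fold threshold 57 smaller, the replicate block 371 and 87, and leaving out each array 214 to 576 and 25 to 179. Deviations of same-numbered late arrays correlated at 0.084, -0.065, -0.233 and 0.036, and those of arrays with other numbers at -0.341 to 0.433. Few pairs and contents particular to single arrays mean that these values cannot decide whether same-numbered arrays share a mouse. Of 187 single genes examined and called in the late comparison, 163 kept the call with each array left out in turn. The 24 exceptions were Ctla4, Retnlb, Sprr1a, Apoa1, Abcg8, Acsm3, Apln, Cd34, Cd74, Cdkn1a, Foxp3, Hoxa5, Hpgds, Jun, Lum, Lyve1, Ogn, Pi16, Pyy, Reg4, Tek, Tnfrsf18, Tnfrsf4 and Wnt11. In the fit of all 28 arrays 19 single genes lost the call. These were Acsm3, C1qa, Ccl5, Cd34, Cd3g, Foxm1, Gzma, Hoxa5, Jun, Lyve1, Muc2, Ogn, Pi16, Pyy, Reg3g, Reg4, Retnlb, Saa1 and Sprr1a. The number of arrays limits the precision, and differences against levels near 4.11 depend on background.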
